A study of Mus musculus with 10 samples.

Results

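The axon guidance genes of the embryonic dorsal telencephalon were compared between control and Dot1l-cKO embryos. The group was chosen by gene family and not by measured values. It holds 68 protein-coding genes of the 43629 gene identifiers in the count tables, 34 of them ligands and 34 receptors. The ligands are 20 semaphorins, 5 A-type and 3 B-type ephrins, 3 Slits and 3 netrins. The receptors are 9 EphA and 5 EphB receptors, 9 plexins, 2 neuropilins, 3 Robos and 6 netrin receptors.

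The data are RNA-seq counts from mouse embryos at E14.5 on a C57BL/6 background, with 5 libraries per genotype. Control embryos had no Cre and carried 1 floxed allele (Dot1l-cKO f/+). Dot1l-cKO embryos carried 1 Cre allele and 2 floxed alleles (Dot1l-cKO f/f), and controls were littermates. Dot1l encodes the methyltransferase of histone H3 lysine 79. Only Dot1l-cKO embryos carried Cre, so loss of Dot1l and the presence of the Cre allele cannot be told apart in these libraries. In a piece of tissue, fewer cells of a type and less RNA per cell cannot be told apart either.

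Growing axons and migrating neurons steer by guidance cues that attract or repel them. Semaphorins act on plexins, with neuropilins as co-receptors for the secreted class 3, Slits act on Robos, ephrins on Eph receptors, and netrins on Dcc, Neo1 and the Unc5 receptors. In the embryonic cortex these systems direct corticofugal, callosal and thalamocortical axons and the migration of neurons, and blood vessels use many of the same receptors.

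Total counts ranged from 54202349 to 66556034. The 4 libraries with header number 57, a label of unexplained meaning carried by replicates 2 and 3 of both genotypes, had 0.0471% to 0.492% of their counts in mitochondrial rRNA genes, against 5.79% to 10.9% in the other 6. Xist was at 0.234 CPM (counts scaled to a library total of 1e+06) in control replicate 4, and at 0.321 and 0.613 CPM in Dot1l-cKO replicates 1 and 3, against at least 125.9 CPM elsewhere. Dot1l counts were 31.4, 41.5, 36.6, 40.6 and 36.3 CPM in controls and 42.3, 20.1, 39.6, 43.4 and 51.7 CPM in Dot1l-cKO. This gene-level sum (log2 fold change 0.08, SE 0.20, edgeR adjusted p = 0.864) does not separate deleted from remaining exons, so it does not check the labels.

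Of the 65 guidance genes with enough counts to test, 12 were differentially expressed (DE, edgeR quasi-likelihood test, adjusted p under 0.05). That is 18.5% of the group, beside 7.11% of all 17039 genes tested. The group's transcripts were also more abundant than most, and among the 4492 tested genes at or above its median expression 4.14% were DE. The share of members at or above that median was not computed, so the 18.5% and the 4.14% cover unlike sets. Higher in Dot1l-cKO were 7 guidance genes, beside 5.67% of all genes: the neuropilin Nrp2, the plexin Plxnd1, the semaphorins Sema3c and Sema3d, the ephrin Efna3, and the receptors Ephb6 and Unc5b. Lower were 5, beside 1.44% of all genes: Slit1, the neuropilin Nrp1, the Eph receptors Epha5 and Ephb2, and the ephrin Efna2. In 11 of the 12 the CPM of the 2 genotypes did not overlap (16.9% of tested members, beside 8.34% of all genes), and Sema3d was the exception. The changes were moderate, with a median absolute log2 fold change of 0.51 for the DE members and 0.80 for all DE genes. The median over the 65 members was 0.06, and -0.01 over all genes.

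**Figure D1:**
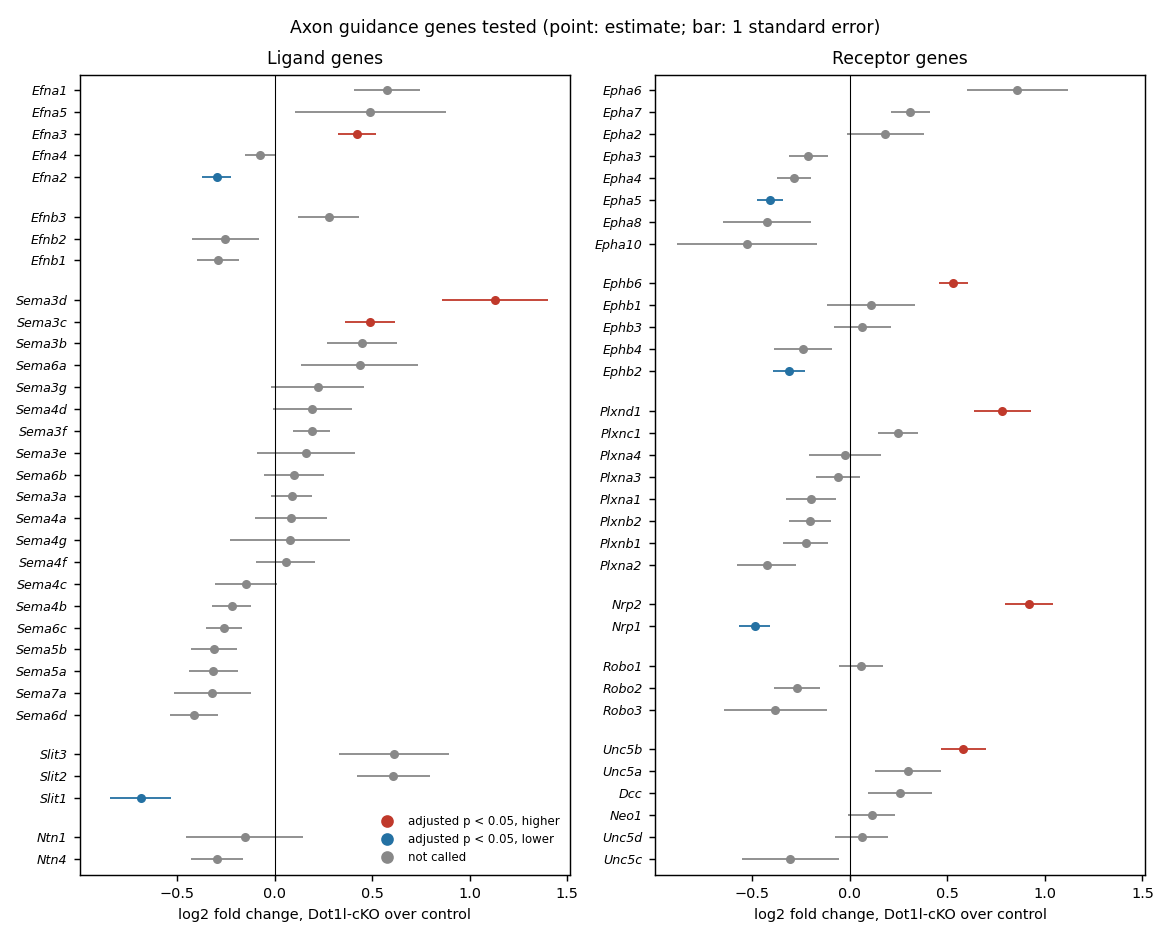
Log2 fold change of Dot1l-cKO over control (horizontal axis) for the 65 guidance genes tested, ligands on the left and receptors on the right, grouped by family. Points are edgeR estimates and bars 1 standard error. The 7 DE genes that rose are red, from 0.42 for Efna3 to 1.13 for Sema3d, and the 5 that fell are blue, from -0.69 for Slit1 to -0.30 for Efna2.

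Another 16 members had an unadjusted p under 0.05 without being DE, 6 of them with positive and 10 with negative log2 fold changes. Together with the DE genes these made 28 members, or 43.1%, beside 20.6% of all genes. The 53 members that were not DE had log2 fold changes from -0.53 (Epha10) to 0.86 (Epha6). Epha1, Plxnb3 and Ntn5 had too few counts to test and were at most at 0.419 CPM in any library.

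Cell type markers also moved with genotype, and their part in the guidance gene results was not tested. Microglial markers rose for 7 of 8 genes, with a summed level of 39.97 to 66.0 CPM in controls and 81.2 to 119 CPM in Dot1l-cKO. Of 9 radial glia markers, Vim, Slc1a3 and Fabp7 rose and Pax6 fell. The median log2 fold change of these 9 was -0.20, and their sum, in which Vim and Fabp7 are among the most abundant, was 2205 to 2735 CPM in controls and 2880 to 3222 CPM in Dot1l-cKO. Of 6 Cajal-Retzius markers 3 were DE and higher (Lhx5, Calb2 and Ebf2), with sums of 398 to 615 and 598 to 1166 CPM. All 6 had positive log2 fold changes (0.47 to 1.40), 5 with an unadjusted p under 0.05 by edgeR. Of 10 tested markers of ventral progenitors and interneurons 3 were DE and lower (Lhx6, Sst and Npy). The sums over all 11 were 66.3 to 324 CPM in controls and 6.49 to 88.6 CPM in Dot1l-cKO. All 10 tested markers had negative log2 fold changes (median -1.83, smallest in size -1.56), 9 with an unadjusted p under 0.05 by edgeR. Sox10 was DE and lower among 4 markers of oligodendrocyte precursors (sums of 20.7 to 48.7 and 4.93 to 46.1 CPM). All 4 had negative log2 fold changes (-2.73 to -0.37), 3 with an unadjusted p under 0.05. Lhx9 rose among 2 tested diencephalic markers (22.6 to 45.5 and 43.3 to 52.9 CPM over all 5). Its log2 fold change was 0.77, while the other tested marker was at -0.37 and not DE. No gene was DE by edgeR among 9 endothelial, 5 pericyte, 8 meningeal, 7 hem and choroid plexus and 6 erythroid markers, where none had an unadjusted p under 0.05 and none was DE by DESeq2. Among these, the meningeal sum varied from 15.3 to 411 CPM in controls and from 20.6 to 381 CPM in Dot1l-cKO, and that of hem and choroid plexus from 7.36 to 634 and from 8.57 to 169 CPM. No DE gene was found by edgeR among 6 markers each of intermediate progenitors and projection neurons or 9 of striatal neurons, where 0, 1 and 1 had an unadjusted p under 0.05 and 0, 1 and 0 were DE by DESeq2. The projection neuron sum of 2985 to 4441 CPM in controls and 3669 to 4604 CPM in Dot1l-cKO was of the size of the radial glia sum, so markers of both main cell classes of the labelled tissue were abundant. Every listed marker exceeded 0.1 CPM in at least 1 library.

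Promoter sequence was examined because the 12 genes changed in the same tissue. RefSeq promoters on GRCm38.p6 were matched for 11 of the 12 (Slit1 was not matched), giving 12 promoters of 250 bases before the start, 2 of them for Efna3. The GC box, searched as GGGCGG on both strands, was in 10 of 12, beside 32.97% of 32536 promoters of all genes and 55.5% of 15229 promoters of genes tested. CCAAT was in 2 of 12 (33.8% and 34.8%), and TATAAA was in 0 of 12 (12.3% and 6.65%). GC content was 46.8% to 78.4% and the number of CpG 4 to 39, with medians of 59.6% and 15 over promoters of genes tested. Only the Sema3d promoter, at 46.8%, was under this GC median, and the others were at 62.4% or more. The share with a GC box was not computed at matched GC content or for members that were not DE. Matches of different motifs may share bases, and a match describes the letters only. Shown are the 4 promoters whose RefSeq start is also the GENCODE start and whose window holds no annotated exon, 2 from genes that fell (Epha5 and Efna2) and 2 from genes that rose (Plxnd1 and Unc5b). Capitals mark the GC box in either orientation. The windows are chr5:84417383-84417632 (minus strand) for Epha5, chr10:80179232-80179481 (plus) for Efna2, chr6:115995006-115995255 (minus) for Plxnd1 and chr10:60831582-60831831 (minus) for Unc5b, each written 5′ to 3′ towards the gene.
Epha5: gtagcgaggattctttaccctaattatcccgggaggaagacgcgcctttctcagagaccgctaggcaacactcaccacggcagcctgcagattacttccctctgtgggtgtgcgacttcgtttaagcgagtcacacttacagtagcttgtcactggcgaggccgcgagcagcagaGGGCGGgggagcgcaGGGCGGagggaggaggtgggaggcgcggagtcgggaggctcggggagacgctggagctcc
Efna2: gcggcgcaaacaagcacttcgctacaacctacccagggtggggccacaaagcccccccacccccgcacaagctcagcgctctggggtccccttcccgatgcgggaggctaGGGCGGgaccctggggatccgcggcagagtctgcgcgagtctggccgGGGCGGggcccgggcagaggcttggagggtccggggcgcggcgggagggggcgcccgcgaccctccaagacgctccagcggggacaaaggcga
Plxnd1: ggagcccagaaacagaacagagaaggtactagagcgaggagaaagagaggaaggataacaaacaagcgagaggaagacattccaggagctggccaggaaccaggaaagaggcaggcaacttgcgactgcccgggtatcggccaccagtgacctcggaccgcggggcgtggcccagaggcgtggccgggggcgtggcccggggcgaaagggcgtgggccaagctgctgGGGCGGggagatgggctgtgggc
Unc5b: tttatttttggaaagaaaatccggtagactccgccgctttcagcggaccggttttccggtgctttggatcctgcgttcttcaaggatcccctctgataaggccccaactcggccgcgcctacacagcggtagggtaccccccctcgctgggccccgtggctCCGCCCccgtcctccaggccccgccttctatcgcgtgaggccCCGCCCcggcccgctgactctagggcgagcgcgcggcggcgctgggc

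The receptors of the semaphorin system held the 2 largest changes among the DE receptors, those of Nrp2 and Plxnd1. Nrp2, a co-receptor for class 3 semaphorins such as Sema3f, rose 1.89-fold and its paralogue Nrp1, the co-receptor for Sema3a, fell to 0.712 of the control level. Nrp2 (ENSMUSG00000025969, chromosome 1 from 62703285 to 62818695, plus strand) was at 109, 142, 146, 112 and 165 CPM in controls 1 to 5 and at 231, 252, 283, 229 and 281 CPM in Dot1l-cKO 1 to 5. All Dot1l-cKO libraries lay above all controls, and the means were 135 ± 24.1 and 255 ± 25.98 CPM (± SD, n = 5, as for all means given; log2 fold change 0.92, SE 0.12, adjusted p = 0.00144). Nrp1 (ENSMUSG00000025810, chromosome 8 from 128358604 to 128503363, plus strand) was at 187, 209, 211, 177 and 218 CPM in controls and at 139, 151, 139, 128 and 157 CPM in Dot1l-cKO. The lowest control was above the highest Dot1l-cKO library, with means of 200.4 ± 17.2 and 143 ± 11.4 CPM (log2 fold change -0.49, SE 0.08, adjusted p = 0.0045).

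The order of the 2 neuropilins was exchanged between genotypes. Per kb of exon, Nrp1 was the more abundant in every control, at 20.5 ± 1.76 against 11.4 ± 2.04 CPM per kb for Nrp2. In every Dot1l-cKO library Nrp2 was the more abundant, at 21.5 ± 2.19 against 14.6 ± 1.17 CPM per kb. The ratio of Nrp2 to Nrp1 was 0.480, 0.564, 0.572, 0.522 and 0.628 in controls and 1.38, 1.38, 1.68, 1.48 and 1.48 in Dot1l-cKO. The ratio was formed after both changes were seen and was not tested on its own.

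**Figure D2:**
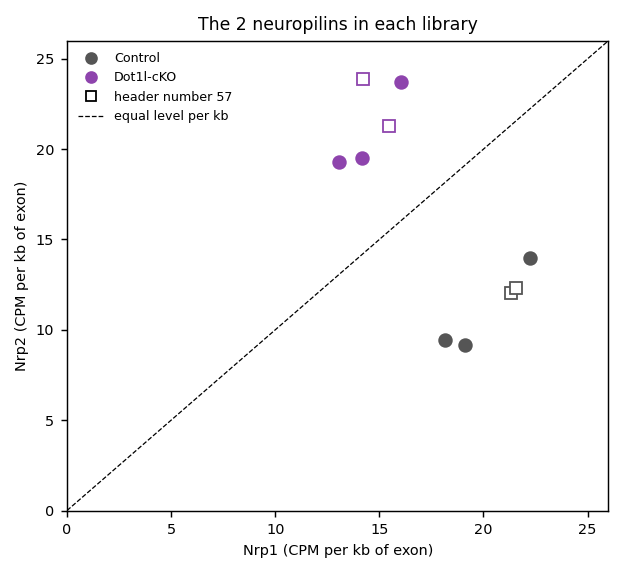
Level of Nrp2 (vertical axis) against Nrp1 (horizontal axis), both in CPM per kb of exon, 1 point per library. Grey points are controls, purple points Dot1l-cKO, open squares the libraries with header number 57, and the dashed line marks equal levels. All 5 controls lie under the line, with ratios of 0.480 to 0.628, and all 5 Dot1l-cKO libraries above it, with ratios of 1.38 to 1.68.

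Among the 8 plexins tested, 1 was DE. Plxnd1 (ENSMUSG00000030123, chromosome 6 from 115954811 to 115995005, minus strand), the receptor of Sema3e and widely studied in blood vessels, was at 94.7, 101, 127, 116 and 122 CPM in controls and at 177, 129, 224, 212 and 221 CPM in Dot1l-cKO. Dot1l-cKO replicate 2 was just above the highest control and the other 4 were well above it (log2 fold change 0.78, SE 0.15, adjusted p = 0.00884; means 112 ± 13.8 and 193 ± 40.03 CPM). The 9 endothelial markers summed to 156 to 282 CPM in controls and 143 to 325 CPM in Dot1l-cKO. A part of vessel cells or of other cell types in the Plxnd1 change was not tested. The RefSeq promoter of Plxnd1, printed above, held 1 GC box.

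All 4 A-type and both tested B-type plexins had negative log2 fold changes, from -0.43 to -0.02 and from -0.23 to -0.20, except that Plxna3 and Plxna4 turned positive when single libraries were left out. For these plexins edgeR and DESeq2 made no call, with 1 unadjusted p under 0.05 (Plxna2, 0.0161). Plxna2 and Plxnb2, receptors of class 3 and class 6 and of class 4 semaphorins respectively, had the highest control levels of the family per kb, at 39.0 ± 6.595 and 37.6 ± 4.27 CPM per kb. These neighbours differed by less than their SD. Plxna2 had a log2 fold change of -0.43 (SE 0.15, adjusted p = 0.128), and -0.43 with the replicate block (adjusted p = 0.03). It was lower in Dot1l-cKO in all 5 same-numbered pairs, while the genotypes overlapped. Plxnb2 had a log2 fold change of -0.20 (SE 0.11, adjusted p = 0.325). Plxnc1, the receptor of Sema7a, had an unadjusted p of 0.0336 and a log2 fold change of 0.25 (SE 0.10, adjusted p = 0.196).

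Of the 20 semaphorins 2 were DE, both secreted class 3 members on chromosome 5. Sema3d (ENSMUSG00000040254, from 12383385 to 12588948, plus strand) was at 2.21, 2.63, 4.61, 1.57 and 3.07 CPM in controls and at 7.40, 4.804, 6.62, 4.46 and 7.57 CPM in Dot1l-cKO. Control replicate 3 was above Dot1l-cKO replicate 4, so the groups overlapped, although each Dot1l-cKO library was above the control of its number (log2 fold change 1.13, SE 0.27, adjusted p = 0.0289; means 2.82 ± 1.14 and 6.17 ± 1.45 CPM). Sema3c (ENSMUSG00000028780, from 17574281 to 17730268, plus strand), which binds both neuropilins, was at 80.7, 50.7, 67.9, 77.7 and 82.1 CPM in controls and at 112, 95.0, 88.5, 109.7 and 99.1 CPM in Dot1l-cKO. The genotypes did not overlap, and in both the header number 57 libraries were the lowest (log2 fold change 0.49, SE 0.13, adjusted p = 0.0414; means 71.8 ± 13.0 and 101 ± 9.80 CPM).

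These genes lie with Sema3a and Sema3e in 5.35 Mb of chromosome 5. Sema3a, the repellent bound by Nrp1, had a log2 fold change of 0.09 (SE 0.10, adjusted p = 0.703), and Sema3e, the ligand of Plxnd1, one of 0.16 (SE 0.25, adjusted p = 0.774). All 7 class 3 genes had positive log2 fold changes, from 0.09 to 1.13, except that Sema3e was at -0.04 without Dot1l-cKO replicate 3. Besides the 2 DE genes, Sema3b had an unadjusted p of 0.0306 (log2 fold change 0.45, SE 0.18, adjusted p = 0.187). Sema3f, the ligand of Nrp2, had a log2 fold change of 0.19 (SE 0.10, adjusted p = 0.308).

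None of the membrane-bound semaphorins of classes 4 to 7 was DE by edgeR, while 5 had an unadjusted p under 0.05 and 1 of these, Sema6d, was DE by DESeq2. Sema6d, a transmembrane ligand of plexin-A1, and Sema4c, a ligand of plexin-B2, had the highest control levels of the family per kb, at 16.9 ± 2.15 and 13.2 ± 2.72 CPM per kb. Sema6d was at 185, 166, 145, 201 and 195 CPM in controls and at 148, 101, 135, 155 and 131 CPM in Dot1l-cKO. The genotypes overlapped only through control replicate 3, and all 5 pairs were lower in Dot1l-cKO (log2 fold change -0.41, SE 0.12, adjusted p = 0.0715; with the replicate block -0.42, adjusted p = 0.0298). Sema4c had a log2 fold change of -0.15 (SE 0.16, adjusted p = 0.658). Sema4b, Sema5a, Sema5b and Sema6c, all transmembrane, had unadjusted p-values from 0.0164 to 0.0489 and log2 fold changes from -0.32 to -0.22. Their adjusted p-values were 0.239, 0.181, 0.156 and 0.129.

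Of the 3 Slits, secreted repellents, Slit1 fell and the others were not DE. Slit1 (ENSMUSG00000025020, chromosome 19 from 41600257 to 41743665, minus strand) was at 59.7, 73.0, 74.3, 77.6 and 72.0 CPM in controls and at 41.6, 27.7, 50.9, 46.3 and 54.6 CPM in Dot1l-cKO. All Dot1l-cKO libraries lay below all controls, with Dot1l-cKO replicate 2 the lowest (log2 fold change -0.69, SE 0.16, adjusted p = 0.0231; means 71.3 ± 6.83 and 44.2 ± 10.5 CPM). Slit2 was at 52.6, 68.3, 77.6, 41.5 and 44.3 CPM in controls and at 72.7, 86.0, 102, 68.6 and 104 CPM in Dot1l-cKO. It was higher in Dot1l-cKO in all 5 pairs, with overlap of the genotypes, and was not DE in the fit without a covariate (log2 fold change 0.61, SE 0.19, adjusted p = 0.0793; 0.63 with the replicate block, adjusted p = 0.027). Slit3 was likewise DE with the replicate block and not in the fit without it, at 7.79 ± 2.80 and 11.9 ± 4.01 CPM (log2 fold change 0.61, SE 0.28, adjusted p = 0.25; 0.63 with the replicate block, adjusted p = 0.0182).

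Per kb of exon, Slit1 was the most abundant Slit in controls at 12.04 ± 1.15 CPM per kb, followed by Slit2 at 2.24 ± 0.614. The merged exon lengths behind these levels were 5921 bp for Slit1 and 25433 bp for Slit2. In CPM, given above, the controls of Slit1 and Slit2 were closer. The ratio of Slit2 to Slit1 per kb was 0.124 to 0.243 in controls and 0.345 to 0.724 in Dot1l-cKO, without overlap and without a test of its own. It was formed after both changes were seen. The Slit receptors did not pass the threshold. Robo2, at 14.2 ± 2.19 CPM per kb in controls, had a log2 fold change of -0.27 (SE 0.12, unadjusted p = 0.0426, adjusted p = 0.223), and Robo1, at 12.9 ± 0.831 CPM per kb, one of 0.05 (SE 0.11, adjusted p = 0.835). The control levels of the pair differed by less than the SD of Robo2. Robo3, known from commissural axons, was far lower at 0.584 ± 0.214 CPM per kb (log2 fold change -0.38, SE 0.26, adjusted p = 0.466).

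**Figure D3:**
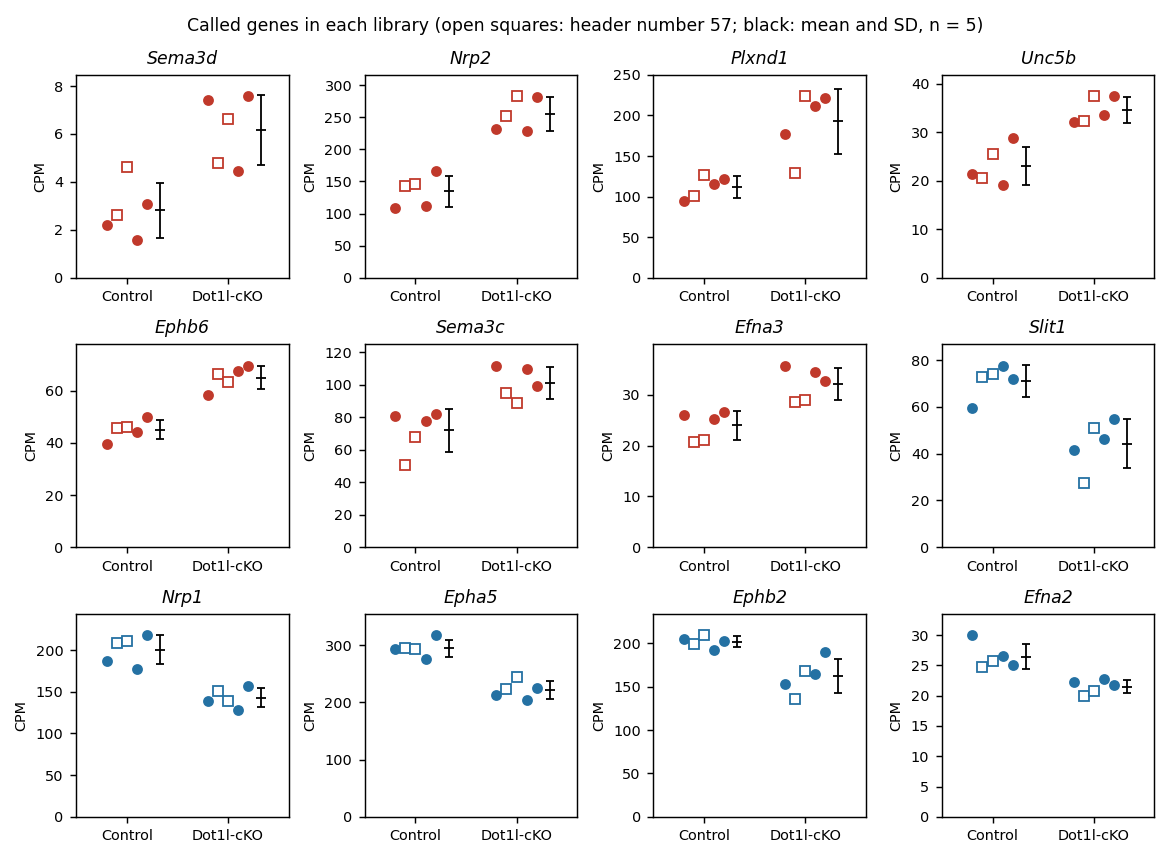
CPM (vertical axes, each from 0) of the 12 DE guidance genes in each library, controls on the left and Dot1l-cKO on the right of each panel, replicates 1 to 5 in order. Red genes rose and blue genes fell, open squares are libraries with header number 57, and black marks are the mean and SD (n = 5). The genotypes do not overlap in 11 panels, and in Sema3d 1 control at 4.61 CPM exceeds 1 Dot1l-cKO library at 4.46 CPM.

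Among the ephrins, which are membrane-tethered ligands, A-type Efna3 rose and Efna2 fell. Efna3 (ENSMUSG00000028039, chromosome 3 from 89313899 to 89322965, minus strand) was at 26.1, 20.8, 21.1, 25.2 and 26.6 CPM in controls and at 35.7, 28.5, 29.0, 34.4 and 32.7 CPM in Dot1l-cKO. The header number 57 libraries were the lowest in both genotypes, and the genotypes did not overlap (log2 fold change 0.42, SE 0.10, adjusted p = 0.0259; means 24.0 ± 2.79 and 32.1 ± 3.19 CPM). Efna2 (ENSMUSG00000003070, chromosome 10 from 80179482 to 80190010, plus strand) was at 29.97, 24.8, 25.7, 26.6 and 25.1 CPM in controls and at 22.2, 20.0, 20.8, 22.7 and 21.8 CPM in Dot1l-cKO. All Dot1l-cKO libraries were below all controls by a small margin (log2 fold change -0.30, SE 0.07, adjusted p = 0.0324; means 26.4 ± 2.10 and 21.5 ± 1.11 CPM). The ratio of Efna3 to Efna2 per kb was 0.720 to 0.927 in controls and 1.22 to 1.40 in Dot1l-cKO, and was not tested on its own. It was formed after both changes were seen, and their opposite directions without overlap fix its separation.

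Efna3 has Efna4 and Efna1 beside it on chromosome 3, at gaps of 0.0104 and 0.0328 Mb. Efna4 had a log2 fold change of -0.07 (SE 0.08, adjusted p = 0.662), and with Efna2 it had the highest control level of the A-type ephrins, at 12.7 ± 0.865 and 12.4 ± 0.984 CPM per kb, which differed by less than their SD. Efna1 had a log2 fold change of 0.58 (SE 0.17, unadjusted p = 0.00554, adjusted p = 0.0664), at 4.87 ± 0.994 and 7.27 ± 1.37 CPM. No B-type ephrin was DE by edgeR or DESeq2. Efnb1, an X-linked gene, and Efnb2 were the most abundant ephrins per kb in controls, at 62.8 ± 9.46 and 49.1 ± 5.27 CPM per kb. Efnb1 had an unadjusted p of 0.0188 (log2 fold change -0.29, SE 0.11, adjusted p = 0.139), and was lower in Dot1l-cKO in all 5 pairs. Efnb2 had a log2 fold change of -0.25 (SE 0.17, adjusted p = 0.455).

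Of 13 Eph receptors tested 3 were DE. Epha5 (ENSMUSG00000029245, chromosome 5 from 84054761 to 84417382, minus strand), a receptor of A-type ephrins, was at 293, 296, 293, 276 and 318 CPM in controls and at 213, 224, 245, 204 and 226 CPM in Dot1l-cKO. The groups were well apart for their spread (log2 fold change -0.41, SE 0.07, adjusted p = 0.00443; means 295 ± 14.8 and 222 ± 15.3 CPM), and the promoter printed above held 2 GC boxes. Epha4, which binds ephrins of both types, and Epha3 had the highest control levels of the EphA receptors, at 72.6 ± 6.73 and 40.4 ± 4.47 CPM per kb. Epha4 was at 640.4, 586, 620.4, 579.7 and 499 CPM in controls and at 428, 535, 495, 448 and 493 CPM in Dot1l-cKO. It was lower in all 5 pairs, though control replicate 5 lay among the Dot1l-cKO libraries, and was not DE (log2 fold change -0.29, SE 0.09, adjusted p = 0.0735). Epha3 had a log2 fold change of -0.21 (SE 0.10, adjusted p = 0.252).

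Epha6 and Epha7 had positive log2 fold changes without being DE. Epha7 averaged 74.2 ± 10.7 CPM in control and 92.0 ± 5.73 CPM in Dot1l-cKO libraries, higher in all 5 pairs (log2 fold change 0.31, SE 0.10, adjusted p = 0.0887; 0.32 with the replicate block, adjusted p = 0.0223). Epha6, at 3.23 ± 1.36 and 5.85 ± 0.960 CPM, had a log2 fold change of 0.86 (SE 0.26, adjusted p = 0.0754). The unadjusted p-values of Epha4, Epha6 and Epha7 were 0.00657, 0.00685 and 0.00903.

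The EphB receptors with the highest control levels per kb were both DE, in opposite directions. Ephb6 (ENSMUSG00000029869, chromosome 6 from 41605482 to 41620509, plus strand), an Eph receptor without kinase activity, was at 39.6, 45.7, 46.0, 44.1 and 49.9 CPM in controls and at 58.4, 66.5, 63.2, 67.7 and 69.5 CPM in Dot1l-cKO. Ephb2 (ENSMUSG00000028664, chromosome 4 from 136647539 to 136835988, minus strand), a kinase receptor of B-type ephrins, was at 205, 199, 209, 192 and 203 CPM in controls and at 153.6, 136, 168, 164 and 190.1 CPM in Dot1l-cKO. Neither gene overlapped between genotypes, and Dot1l-cKO replicate 5 came close to the lowest control for Ephb2. The log2 fold change was 0.53 for Ephb6 (SE 0.08, adjusted p = 0.00188; means 45.1 ± 3.71 and 65.1 ± 4.39 CPM) and -0.31 for Ephb2 (SE 0.08, adjusted p = 0.0473; means 202 ± 6.33 and 162 ± 19.8 CPM). Per kb, Ephb2 was the higher in controls at 16.0 ± 0.502 against 11.9 ± 0.984, while in Dot1l-cKO Ephb6 was at 17.2 ± 1.16 and Ephb2 at 12.9 ± 1.57 CPM per kb. This order depends on the merged exon lengths, 12608 bp for Ephb2 and 3773 bp for Ephb6. In CPM Ephb2 stayed above Ephb6 in both genotypes.

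In the netrin system 1 gene was DE. Unc5b (ENSMUSG00000020099, chromosome 10 from 60762593 to 60831581, minus strand), a repulsive netrin receptor also studied in blood vessels, was at 21.5, 20.6, 25.6, 19.1 and 28.7 CPM in controls and at 32.2, 32.3, 37.4, 33.7 and 37.4 CPM in Dot1l-cKO. All Dot1l-cKO libraries exceeded all controls (log2 fold change 0.58, SE 0.11, adjusted p = 0.0101; means 23.1 ± 3.96 and 34.6 ± 2.66 CPM). The promoter printed above held 2 GC boxes. The endothelial marker sums given for Plxnd1 overlapped between genotypes, and a part of vessel cells or of other cell types in the Unc5b change was not tested. Unc5a had a log2 fold change of 0.30 (SE 0.17, adjusted p = 0.371), and 0.28 with the replicate block (adjusted p = 0.0403).

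Among the netrin receptors, the highest control levels were those of Neo1, which binds netrins and repulsive guidance molecules, at 38.1 ± 7.02 CPM per kb, and of Dcc, the attractive netrin receptor, at 10.6 ± 1.28 CPM per kb. Neo1 had a log2 fold change of 0.11 (SE 0.12, adjusted p = 0.669) and Dcc one of 0.26 (SE 0.16, adjusted p = 0.433). The ligands Ntn4, at 6.42 ± 0.896, and Ntn1, at 2.43 ± 0.974 CPM per kb in controls, were not DE. Ntn4, a netrin of basement membranes, had a log2 fold change of -0.30 (SE 0.13, unadjusted p = 0.0485, adjusted p = 0.239), and -0.30 with the replicate block (adjusted p = 0.0369). Ntn1 had one of -0.16 (SE 0.30, adjusted p = 0.822).

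The replicate block raised the number of DE members from 12 to 19, of which 11 were higher and 8 lower (29.2% of the members tested, beside 9.41% of all genes). All 12 kept their call, and Epha7, Sema6d, Plxna2, Slit2, Slit3, Ntn4 and Unc5a were added. With header number 57 as a covariate the number was also 19 (29.2%, beside 10.5% of all genes), with Epha4, Epha6, Epha7, Efnb1, Sema6d, Plxna2 and Slit2 added. DESeq2 found 17 (26.2%, beside 10.4% of all genes), adding Epha4, Epha6, Efna1, Sema6d and Slit2. Among these fits Slit3, Ntn4 and Unc5a were DE only with the replicate block, which depends on pairing the samples by replicate number.

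Each of the 12 DE genes had the same direction within the 4 libraries with header number 57 and within the other 6, which their choice from all 10 libraries nearly fixes. Among those 6, 11 members were DE (16.9%, beside 4.31% of all genes), 9 higher and 2 lower. They were Nrp2, Plxnd1, Sema3c, Sema3d, Efna3, Ephb6 and Epha5 of the 12, and Efna1, Sema6a, Sema6d and Slit2. Not DE there were Nrp1 (log2 fold change -0.46, adjusted p = 0.0672), Slit1 (-0.56, adjusted p = 0.0681), Unc5b (0.57, adjusted p = 0.0825), Efna2 (-0.30, adjusted p = 0.124) and Ephb2 (-0.24, adjusted p = 0.245). Among the 4 libraries with header number 57, edgeR called 0 of the 65 members and 1 gene in all, and 19 members had an unadjusted p under 0.05 (29.2%, beside 14.1% of all genes). Over all members, the 12 DE genes included, 51 of 65 had the same sign in both sets. The share over all genes was not computed, so this count is not a result about the members.

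**Figure D4:**
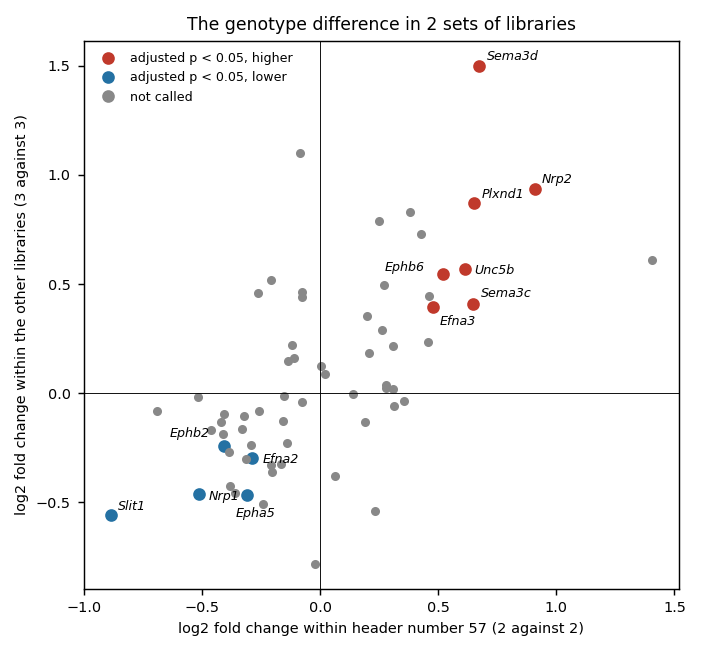
Log2 fold change of Dot1l-cKO over control within the 4 libraries with header number 57 (horizontal axis, 2 against 2) and within the other 6 (vertical axis, 3 against 3), 1 point per guidance gene tested. The 12 DE genes are named, red where higher and blue where lower. All 12 lie in the quadrants where both sets have the same sign, from -0.89 and -0.56 for Slit1 to 0.67 and 1.501 for Sema3d.

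The calls of 6 genes held in all 10 fits that left out 1 library and under all 9 other alternatives: Nrp1, Nrp2, Plxnd1, Epha5, Ephb6 and Unc5b. The other 6 calls each depended on the libraries included. Slit1 lost its call without control replicate 2 or 4 or Dot1l-cKO replicate 1 (highest adjusted p = 0.0615). Efna3 lost it without control replicate 2 or 4 or Dot1l-cKO replicate 1, 4 or 5 (highest adjusted p = 0.0697), and Sema3d without control replicate 1, 2 or 4 or Dot1l-cKO replicate 1, 3 or 5 (0.0809). Efna2 kept it without control replicate 2, 3 or 5 and lost it without any of the other 7 libraries (0.0809). Sema3c kept it without control replicate 2 or 5 (0.0999 at most otherwise). Sema3c also lost it with DESeq2 size factors, without a low-count filter, without mitochondrial genes and with limma. Among the leave-one-out fits Ephb2 kept its call only without Dot1l-cKO replicate 5 (adjusted p = 0.0146, and at most 0.111 otherwise). Without a low-count filter Ephb2 and Efna2 also lost it (0.0565 and 0.0559). Ephb2 lost it as well with at least 10 counts in every sample (0.0508). With Xist as a covariate Ephb2, Efna2, Efna3, Sema3c and Sema3d were no longer DE, with adjusted p-values of 0.102, 0.0663, 0.0596, 0.0838 and 0.0569, while their log2 fold changes were -0.30, -0.30, 0.41, 0.47 and 1.19.

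**Figure D5:**
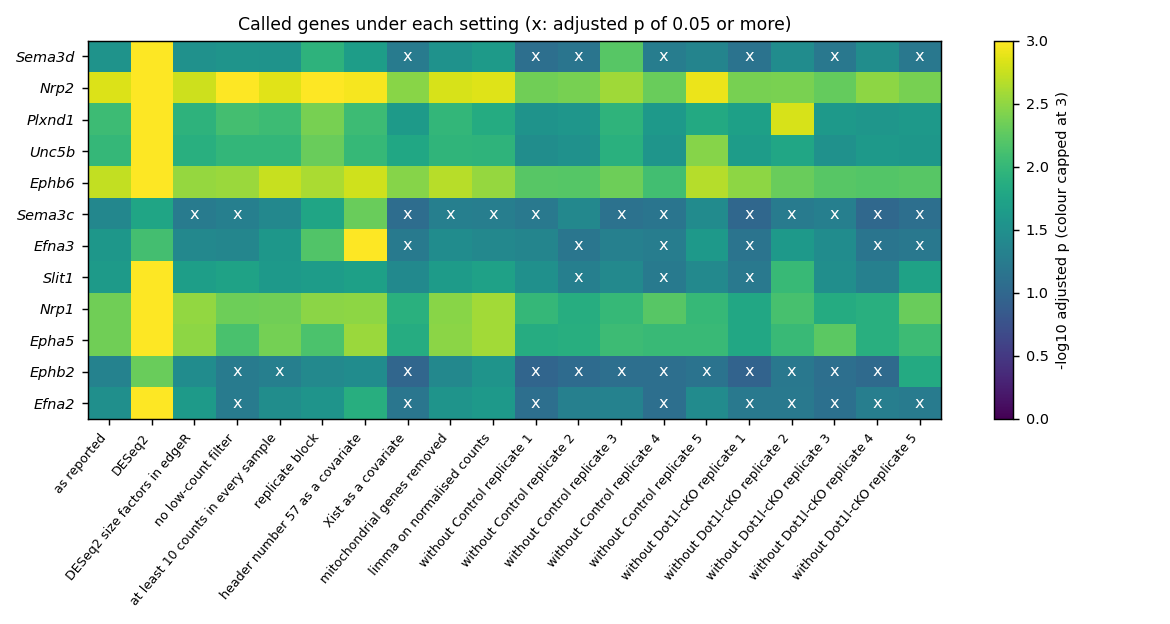
Adjusted p of the 12 DE guidance genes (vertical axis) as reported, under 9 other settings and without each of the 10 libraries (horizontal axis). Colour is the negative log10 of the adjusted p, capped at 3, and a cross marks a value of 0.05 or more. The rows of Nrp2, Plxnd1, Unc5b, Ephb6, Nrp1 and Epha5 hold no cross, and Ephb2 keeps 1 of 10 leave-one-out calls.

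Related guidance genes outside these families were read from lists that hold no member. Of 21 other cues and receptors 1 was DE, Flrt3, a membrane protein that binds Unc5 receptors. It was at 103, 70.4, 94.7, 88.3 and 99.2 CPM in controls and at 43.6, 50.3, 49.9, 40.3 and 51.6 CPM in Dot1l-cKO, without overlap (log2 fold change -0.95, SE 0.11, adjusted p = 0.000635). In this list 8 genes had an unadjusted p under 0.05, 5 were DE by DESeq2 and 4 with the replicate block. Of 44 intracellular effectors of guidance receptors, such as small GTPases, their regulators and the collapsin response mediators, edgeR called 0. In that list 11 had an unadjusted p under 0.05, 3 of them higher, 4 were DE by DESeq2 and 3 with the replicate block. Log2 fold changes of the effectors ran from -0.55 to 0.54, with a median of -0.07. Beside both lists, 7.11% of all genes were DE and 20.6% had an unadjusted p under 0.05 by edgeR. By DESeq2 10.4% of all genes were DE, and with the replicate block 9.41%.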

How the data were processed

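RNA-seq of 10 dorsal telencephalon samples was analysed, 5 control and 5 Dot1l-cKO. Per the labels and the study's methods, the authors depleted total RNA of ribosomal RNA, made strand-specific libraries, sequenced paired ends and trimmed reads with Trim Galore 0.2.8. Reads were mapped to mm10 with TopHat2 2.0.9, guided by an Ensembl annotation, and assigned to genes with HTSeq 0.6.0 in reverse-stranded mode. The deposited values are whole-number counts per gene. A second deposited table holds a normalised signal, the same counts divided by a size factor per library from DESeq2 1.6.1. The columns of that table carry a header number that the sources used here do not explain.

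Genes were tested with edgeR 4.0.16 in R 4.3.3: filterByExpr, TMM normalisation, the quasi-likelihood test between genotypes without a covariate, and Benjamini-Hochberg adjustment over 17039 genes. A gene was DE (differentially expressed) when this adjusted p-value was under 0.05. Standard errors are the log2 fold change divided by the square root of F. CPM are counts scaled to a TMM library size of 1e+06, and levels per kb divide them by the merged exon length in GENCODE M21 (GRCm38). Differences in level per kb between genes depend on these lengths. On simulated counts with 200 of 17039 genes changed by 1 log2 unit in this comparison, the test recovered 83% and 6.74% of its calls were false. Total counts ranged from 54202349 to 66556034, and without molecular identifiers they limit counting error only. Replicates of a group differed by more than sampling noise, with a chi-square per degree of freedom of at least 23.4.

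Same-numbered samples shared a header number and, over genes, their deviations from the group means correlated at 0.229, 0.349, 0.145, 0.597 and 0.131 for replicates 1 to 5, against a mean of -0.07 for different numbers. All 5 correlations were over 0.1, so the numbers were taken to pair the samples. However, only 2 of the 5 numbers (1 and 4) correlated best with their own number. The libraries with header number 57 carry 2 replicate numbers in each genotype, so the header does not tell these 2 pairs apart. Whether they are pairs or only share a header number was not tested. Calls with the replicate block and counts over pairs depend on this pairing. Alternatives were the replicate block, DESeq2 1.42.0, its size factors in edgeR, 2 other count filters, header number 57 as a covariate, Xist as a covariate, removal of mitochondrial genes, limma 3.58.1 on log2 of the normalised value plus 1, and each sample left out in turn. The fits within the header-number sets were run beside these.

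The genes and gene lists were chosen with earlier results of these data known. Named are Dot1l, every DE guidance gene, the 2 members of each family with the highest control level per kb, members with an unadjusted p under 0.05, members that failed the count filter, and up to 3 DE genes per direction of each pathway list. Members DE under another fit, and neighbouring genes, were named after their values were seen. Another gene of the naming rule is not reported here. Ntn3 was not analysed here. Exon-level reads were not analysed here.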

Additional observations from a re-analysis of the deposited data

Results flagged for a closer look

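The 37 named guidance genes, not every member, and reference genes were screened for libraries apart from the other 4 of their genotype. The measure was the gap to the nearest library divided by the range of log2 CPM. Of 78 groups of 5 libraries 4 passed Dixon's critical value of 0.71, and chance alone passes about 1 in 20. Dot1l-cKO replicate 2 stood low for Robo2 (162 CPM against 205 to 216 CPM, ratio 0.819), for Sema5a (94.9 against 129 to 146 CPM, ratio 0.7101) and for Dot1l itself (20.1 against 39.6 to 51.7 CPM, ratio 0.717). Control replicate 1 stood low for Slit1 (59.7 against 72.0 to 77.6 CPM, ratio 0.715), and Slit1 kept its call without that library. Robo2, Sema5a and Dot1l were not DE with or without Dot1l-cKO replicate 2.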

How the results depend on the processing

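None of the 28 members that were DE or had an unadjusted p under 0.05 changed direction under any alternative. Of the other tested members 11 did, all with a log2 fold change of at most 0.16 in size; 10 of these did so only when 1 library was left out, and Sema4g also with limma. Of the 12 DE members, 82 of 120 calls were kept when 1 library was left out, and 96 of 108 under the other alternatives. The replicate block gave 19 DE members, 11 higher and 8 lower, and header number 57 as a covariate 19, with 9 lower. The block changed no call of a guidance gene beyond those named in the report. Xist as a covariate left 7, with 4 higher and 3 lower, and no low-count filter left 3 lower. The cause of these shifts was not tested. DESeq2 gave 17, while its size factors in edgeR, a minimum of 10 counts in every sample, removal of mitochondrial genes and limma gave 11 each. Leaving out 1 library gave 6 to 15 DE members, 4 to 9 higher and 2 to 6 lower. The total was 6 without control replicate 4 or Dot1l-cKO replicate 1. The higher count was 4 without these or Dot1l-cKO replicate 5. The lower count was 2 without these, and 3 without control replicate 1 or 2 or Dot1l-cKO replicate 2, 3 or 4. Epha1, Plxnb3 and Ntn5 had too few counts to be tested.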
